A study of Mus musculus with 12 samples.

Results

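The genes described here are the variable (V) segment genes of the immunoglobulin heavy (Ighv), kappa (Igkv) and lambda (Iglv) chains in LPS-activated mouse B cells, with or without DNA damage. They are the rows of the deposited table of normalized counts whose symbol begins with Ighv, Igkv or Iglv and whose mean over the 12 libraries is at least 20. The members were thus chosen by their symbol and selected on their mean level over all conditions, not on any ratio between conditions. The rule left 186 genes of the 29486 listed, and 64 further V segment rows lie under the minimum. The 186 are 94 heavy chain segments of 146 rows, 89 kappa segments of 101 rows and all 3 lambda segments.

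Splenic B cells of C57BL/6Babr mice, isolated with a kit, were activated with LPS (10 µg/ml), a bacterial cell wall component that drives B cells to divide and to secrete antibody, and polyA RNA was sequenced from 4 biological replicates in each of 3 conditions. The LPS libraries come from cells with LPS for 48 h, the LE libraries from cells with LPS for 48 h and then etoposide (20 µM, 4 h), a topoisomerase II poison that breaks DNA, and the LEKU libraries from cells with LPS for 47 h, the ATM kinase inhibitor KU55933 (10 µM) for 1 h and then etoposide (20 µM, 4 h). No group had KU55933 without etoposide, and the labels give no time beyond 48 h for the cells without etoposide. The libraries of a condition carry sequencing indexes that no other condition carries, so that index and condition cannot be told apart.

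A V segment encodes most of the antigen-binding part of an antibody chain. During development each B cell joins 1 V segment of each locus to D and J segments (heavy) or to a J segment (light), and the joined exon is spliced to a constant gene, so that a population of mature B cells carries many V segments at once and each cell transcribes mainly those it has joined. Mouse B cells use kappa light chains far more often than lambda. Unjoined V segments can also give low transcription from their own promoters, and the counts do not separate these transcripts from antibody mRNA.

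The values per library do not carry the variation between replicates. Within a condition the deposited columns are in the same ratio for every gene, to within 2.8e-14 on the log2 scale, as the fitted mean of a condition multiplied by a size factor of the library would be. For Igkv1-117 the 4 LPS libraries hold 4504, 4997, 5198 and 4684, the 4 LE libraries 6306, 7068, 8561 and 6852, and the 4 LEKU libraries 4982, 5618, 6019 and 6118, and these differences between libraries of a condition are those of every other gene. Each condition therefore gives 1 value per gene, the fitted count, and neither a spread between replicates nor a p-value can be computed from these columns. Differences are given as log2 ratios of fitted counts with a pseudocount of 1, 2-fold marks a large one, and intervals are 95% intervals for counting error only, which are narrower than the variation between cultures. DESeq2, at the version the authors used, moderates ratios toward 0 by default, most of all for genes with few reads. In units of 1000000 counts the column totals ranged from 20.7 to 23.9 in LPS, from 22.5 to 30.6 in LE and from 20.4 to 25.1 in LEKU, and other genes are represented by the 15616 with a scaled value of at least 10 in at least 4 libraries, which all 186 V segments also reach.

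The sequences show why some of these genes can be told apart by their reads and others less well. The last 90 bases of the V exon are printed for the most abundant heavy and kappa segments, for the heavy segment with the lowest and the kappa segment with the highest ratio after etoposide, and for the 3 lambda segments. Capitals mark the codon of the conserved cysteine that precedes the hypervariable junction. Sequences are from GENCODE M21 transcripts and coordinates are of GRCm38. Ighv1-26 is at chr12:114788372-114788461 and Ighv1-67 at chr12:115603940-115604029, both on the minus strand. Igkv1-117 is at chr6:68121738-68121827, Igkv1-110 at chr6:68271178-68271267 and Igkv2-112 at chr6:68220617-68220706, all on the plus strand. Iglv1 is at chr16:19085017-19085106, Iglv2 at chr16:19260401-19260490 and Iglv3 at chr16:19241207-19241296, all on the minus strand.
Ighv1-26: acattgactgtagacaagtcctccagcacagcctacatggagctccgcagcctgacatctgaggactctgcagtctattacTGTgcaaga
Ighv1-67: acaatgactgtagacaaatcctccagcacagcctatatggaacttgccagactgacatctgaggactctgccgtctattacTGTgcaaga
Igkv1-117: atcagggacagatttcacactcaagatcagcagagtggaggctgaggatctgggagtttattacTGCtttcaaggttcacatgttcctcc
Igkv1-110: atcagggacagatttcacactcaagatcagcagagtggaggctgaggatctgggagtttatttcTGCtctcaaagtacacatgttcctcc
Igkv2-112: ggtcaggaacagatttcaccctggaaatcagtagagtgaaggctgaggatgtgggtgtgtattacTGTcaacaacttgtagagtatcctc
Iglv1: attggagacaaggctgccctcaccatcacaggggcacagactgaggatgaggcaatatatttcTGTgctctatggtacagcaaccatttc
Iglv2: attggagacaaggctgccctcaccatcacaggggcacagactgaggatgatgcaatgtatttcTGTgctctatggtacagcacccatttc
Iglv3: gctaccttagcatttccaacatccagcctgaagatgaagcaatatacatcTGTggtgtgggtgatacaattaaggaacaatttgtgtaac

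Over the whole V exon Igkv1-117 and Igkv1-110 are 96.8% identical and Iglv1 and Iglv2 97.0%, whereas Iglv3 is 54.0% identical to Iglv1 and Ighv1-67 is 85.6% identical to Ighv1-26. A cysteine codon after the tyrosine that usually stands 2 residues before it was found in 92 of 94 heavy, 86 of 89 kappa and 3 of 3 lambda segments. With reads of 100 bases, 64 heavy, 47 kappa and 1 lambda segment share no window of that length with a transcript of any other annotated gene, on either strand. Reads of the other members may also match those genes, which are not always V segments that are near copies. The authors' handling of such reads is not given in the sources used here.

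In undamaged cells V segment use was broad. Of the sum of heavy segment counts, 37.4% lay in the 10 highest segments and 16 segments held 50%, and of the kappa sum 45.2% lay in the 10 highest and 13 segments held 50%. Per kilobase of exon, the level in LPS ranged from 64.3 to 10469 fitted counts among heavy segments (median 799) and from 46.9 to 13140 among kappa segments (median 1193). Ighv1-26 led the heavy segments with 10469 per kilobase, Iglv1 led the lambda segments with 11907, and Igkv1-117, Igkv1-110 and Igkv1-135 led the kappa segments with 13140, 12261 and 11612. Pseudogenes were nearly absent from the set, since only 2 of the 38 heavy rows that the annotation calls pseudogenes (Ighv1-2 and Ighv1-38) and none of the 4 kappa pseudogenes had a mean of at least 20. By contrast 92 of 108 heavy, 89 of 97 kappa and 3 of 3 lambda rows called functional did.

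The share of all counts in V segments is shown by chain. Heavy segments held 0.194% of the library total in LPS, 0.194% in LE and 0.199% in LEKU (Wilson intervals for counting error 0.193–0.195%, 0.194–0.195% and 0.198–0.199%). Kappa segments held 0.259% in LPS, 0.323% in LE and 0.279% in LEKU (0.258–0.260%, 0.322–0.324% and 0.277–0.280%). The 3 lambda segments held 0.0306%, 0.0347% and 0.0287% (0.0302–0.0309%, 0.0344–0.0351% and 0.0284–0.0290%). The kappa share was thus highest with etoposide alone, and the heavy share was nearly level over the 3 conditions. The kappa sum was 1.33 times the heavy sum in LPS, 1.66 times in LE and 1.40 times in LEKU, a ratio of 2 sums within a library that no size factor enters.

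**Figure D1:**
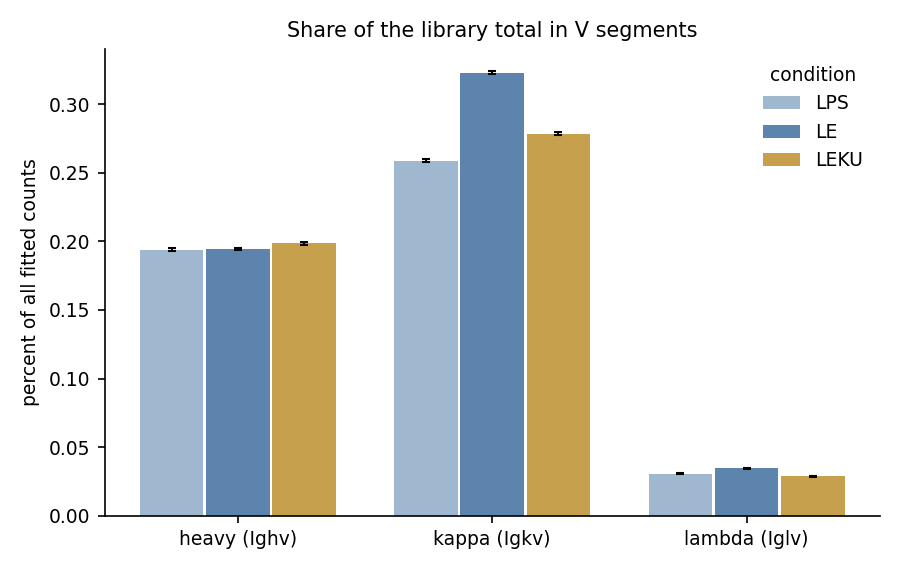
Bars give the percent of all fitted counts (vertical axis, from 0) in heavy, kappa and lambda V segments in LPS, LE and LEKU, and error bars are 95% Wilson intervals for counting error only. Kappa segments take 0.259%, 0.323% and 0.279%, while heavy segments stay between 0.194% and 0.199%.

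Etoposide against LPS compares V segment counts with and without 4 h of etoposide. The labels give no time beyond 48 h for the LPS cells, so that drug and added culture time cannot be told apart. After etoposide the chains differed. Kappa segments were mostly higher than in LPS and heavy segments mostly lower, by small amounts. The median log2 ratio was 0.20 over the 89 kappa segments (a difference of 14.6%), -0.086 over the 94 heavy segments and 0.068 over all genes tested. The ratio was above 0 in 81 of 89 kappa and in 22 of 94 heavy segments, against 54.8% of all genes, but these counts move with the scaling, between 55 and 83 for kappa and between 5 and 36 for heavy in the 4 other scalings tried. The light chain median minus the heavy chain median was 0.28. A size factor shifts both medians alike and nearly cancels in this difference, as does leaving out a library. Among the 6 alternatives that can change it (quantile normalization, other pseudocounts, other minima and functional segments only) it lay between 0.27 and 0.35. Of the heavy segments 93 of 94 lay below the kappa median, and 84 of 89 kappa segments lay above the heavy median. With quantile normalization these counts were 88 and 74.

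Few V segments passed 2-fold in this comparison. Among all genes tested, 15.3% were 2-fold or more higher in LE than in LPS and 4.87% were 2-fold or more lower. No V segment was 2-fold higher, no light chain segment was 2-fold lower, and 4 of 94 heavy segments were (Ighv1-67, Ighv1-38, Ighv1-2 and Ighv15-2), a share near that of all genes. Ighv1-67 had fitted counts of 59.5 in LPS, 11.7 in LE and 29.7 in LEKU, a log2 ratio of -2.25 after etoposide. The interval for counting error, without the pseudocount, was -2.78 to -1.90. Ighv15-2 had 38.2, 15.1 and 24.96, and the pseudogenes Ighv1-38 and Ighv1-2 had 34.5, 11.5 and 17.2 and 30.9, 12.1 and 23.8. Ighv1-2 overlaps the microRNA gene Mir7094-1. All 4 were under 20 in LE. The rule kept them through their values in LPS and LEKU, except that Ighv1-38, under 20 in LEKU too, was kept only through LPS, where it is high. Among the 7 members under 20 in any condition the other 3 were kappa segments (Igkv4-81, Igkv4-62 and Igkv4-73).

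**Figure D2:**
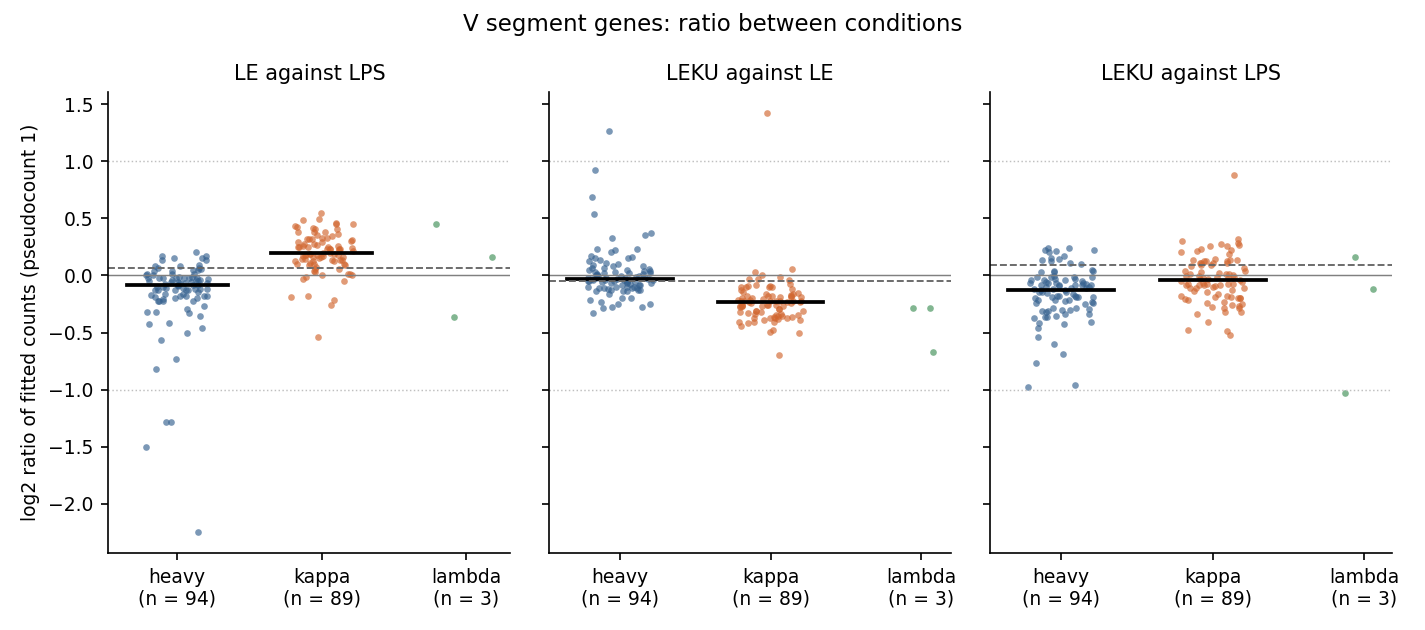
Each point is 1 V segment gene, the vertical axis is the log2 ratio of fitted counts (pseudocount 1) in the comparison named above each panel, black bars are medians of heavy and kappa segments, the dashed line is the median of all genes tested and dotted lines mark 2-fold. Kappa points sit above heavy points in LE against LPS (medians 0.20 and -0.086) and below them in LEKU against LE (-0.23 and -0.028).

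The difference between chains was found in the abundant segments too, which the minimum of the rule does not touch. In the 71 kappa segments with a mean of at least 100 the median log2 ratio was 0.23, with 68 above 0, and in the 74 heavy segments of that kind it was -0.059, with 21 above 0. Among the segments with a mean under 100 the median was 0.13 in 18 kappa and -0.38 in 20 heavy segments, so that heavy segments with few reads had the lowest ratios. Across segments the rank correlation of the mean with this ratio was 0.50 in heavy (n = 94) and 0.40 in kappa chains (n = 89), which describes these genes only, since they share libraries and the mean enters both measures. The members just inside the minimum were Ighv1-38 (mean 20.5), Igkv4-62 (20.98) and Ighv1-2 (21.9), and the rows just outside were Igkv3-3 (19.1), Ighv1-43 (16.3) and Igkv18-36 (16.03).

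**Figure D3:**
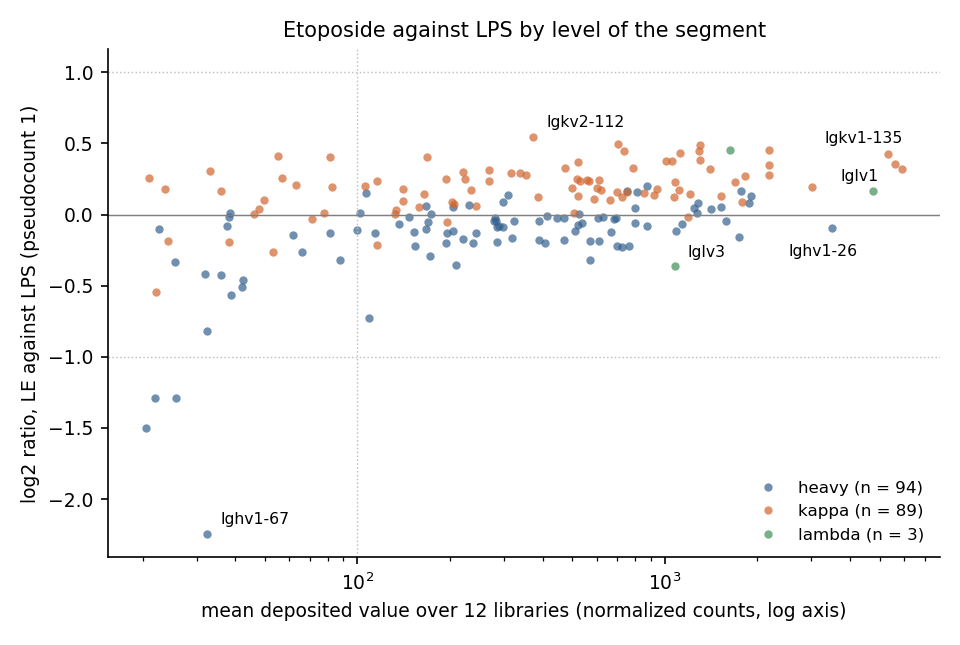
Each point is 1 V segment gene, with the mean of its deposited values over 12 libraries on a log horizontal axis and the log2 ratio of LE against LPS (pseudocount 1) on the vertical axis, and dotted lines mark a mean of 100 and 2-fold. The 4 heavy segments past 2-fold all have a mean under 100, and Ighv1-67 is lowest at -2.25.

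The most abundant kappa segments were higher with etoposide. Igkv1-117 had fitted counts of 5308 in LPS, 6630 in LE and 5556 in LEKU, a log2 ratio of 0.32 after etoposide (counting interval 0.29 to 0.35). Its near copy Igkv1-110 had 4917, 6293 and 5395, and Igkv1-135 had 4575, 6151 and 5004 (log2 ratio 0.43). All 10 of the highest kappa segments had ratios above 0 (9 with TMM factors), from 0.089 (Igkv14-111) to 0.46 (Igkv8-24, with 1821, 2497 and 2117). The largest ratio among light chain segments with a mean of at least 100 was that of Igkv2-112, at 303, 443 and 355 fitted counts (0.55, counting interval 0.44 to 0.65), followed by Igkv8-19 (0.50) and Igkv8-27 (0.49). At the other end were the lambda segment Iglv3 (-0.36), Igkv10-95, with 128, 111 and 108 (-0.21), Igkv3-7 (-0.049), Igkv17-121 (-0.017) and Igkv3-1 (0.0040).

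The most abundant heavy segments stayed near their LPS level. Ighv1-26 had fitted counts of 3675 in LPS, 3447 in LE and 3357 in LEKU, a log2 ratio of -0.092 after etoposide (counting interval -0.13 to -0.059). Among the 10 highest, the ratio ranged from -0.16 (Ighv1-82, with 1910, 1709 and 1612) to 0.17 (Ighv10-1, with 1594, 1790 and 1852), and 7 of these 10 were above 0 (1 to 8 in the other scalings). Above a mean of 100 the highest heavy ratios were those of Ighv7-3 (0.20), Ighv10-1, Ighv6-6 (0.17), Ighv10-3 (0.16) and Ighv1-36 (0.15). The lowest were those of Ighv1-5 (151, 90.7 and 88.5, a ratio of -0.73), Ighv14-4 (-0.35), Ighv1-81 (-0.32), Ighv1-62-2 (-0.29) and Ighv8-8 (-0.23). Ighv1-5 overlaps the microRNA gene Mir7094-2. The highest heavy ratio of 0.20 was about that of the median kappa segment.

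The same difference was seen family by family. V segments of a family are close in sequence, and the families are named by the first number of the symbol. All 10 kappa families with 3 or more members had a median log2 ratio above 0 after etoposide, from 0.11 (Igkv3, 7 members) to 0.34 (Igkv9, 4 members), and Igkv8 was close to the top with 0.33 over 8 members, although 9 of 10 were above 0 with TMM factors or quantile normalization. Of the 8 heavy families only Ighv7 (3 members) was above 0, at 0.012, and 0 to 2 were in the other scalings. The largest heavy family, Ighv1, had 48 members and 58.2% of the heavy counts in LPS and a median of -0.11. The largest kappa family by members, Igkv4, had 26 members, 11.6% of the kappa counts and a median of 0.18, and Igkv1 had 9 members, 24.7% of the counts and a median of 0.29. The small families Ighv6 and Ighv10, with 2 members each, had medians of 0.13 and 0.16, in the range of the kappa families.

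**Figure D4:**
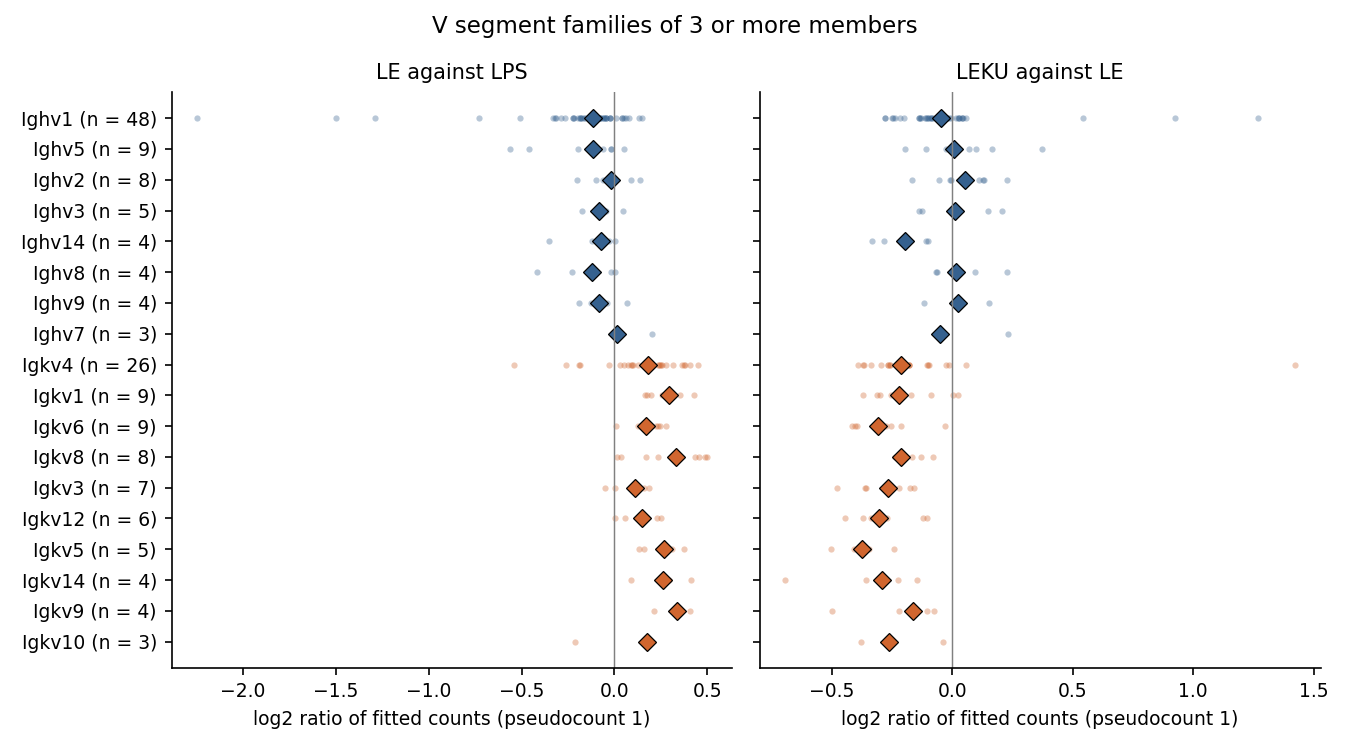
Small points are V segment genes and diamonds the medians of families with 3 or more members (rows, blue for heavy and orange for kappa), with the log2 ratio of fitted counts (pseudocount 1) on the horizontal axes of LE against LPS (left) and LEKU against LE (right). Medians of the 10 kappa families lie between 0.11 and 0.34 on the left and between -0.37 and -0.16 on the right.

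KU55933 plus etoposide against etoposide asks what changes when ATM, the kinase that signals DNA breaks, is inhibited before the damage. It shares the LE libraries with the comparison above, so that the 2 are not independent. With KU55933 kappa segments were mostly lower than with etoposide alone, and heavy segments were near 0. The median log2 ratio was -0.23 over kappa (a difference of -14.9%), -0.028 over heavy and -0.052 over all genes tested. The heavy median lay between -0.036 and 0.030 over the alternatives and changed sign in some of them. Only 4 of 89 kappa segments were above 0 (4 to 11 in the other scalings), against 38 of 94 heavy segments (40 to 59) and 44.1% of all genes. The light chain median minus the heavy chain median was -0.21, and between -0.22 and -0.21 under the 6 alternatives that can change it.

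Of all genes tested, 1.69% were 2-fold or more higher in LEKU than in LE and 4.73% were 2-fold or more lower. Among V segments none was 2-fold lower, and 1 heavy (Ighv1-67, log2 ratio 1.27) and 1 kappa segment (Igkv4-73, 1.42) were 2-fold higher. Igkv4-73, which the later annotation calls Igkv4-51, had fitted counts of 18.5 in LPS, 12.4 in LE and 34.9 in LEKU, and reached the minimum mean of 20 only through LEKU, where it is high. Both have means under 100, and above that level no segment passed 2-fold. There, the lowest light chain ratios were those of Iglv3 (-0.67), Igkv3-1 (-0.48) and Igkv12-41 (-0.44), and the highest those of Igkv1-122 (0.027), Igkv4-70 (-0.014) and Igkv10-95 (-0.036). Among heavy segments Ighv14-4 (-0.33), Ighv14-2 (-0.28) and Ighv1-77 (-0.28) were lowest and Ighv2-3 (0.23), Ighv3-8 (0.21) and Ighv13-2 (0.16) highest. The median was below 0 in 10 of 10 kappa families, from -0.37 (Igkv5) to -0.16 (Igkv9), in every scaling tried. In heavy families it ranged from -0.19 (Ighv14) to 0.054 (Ighv2), with 5 of 8 above 0 and 5 to 7 in the other scalings.

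Set against LPS, cells with KU55933 and etoposide differed less between chains. The median log2 ratio was -0.12 in heavy segments, -0.042 in kappa segments and 0.092 over all genes tested, and the kappa median changed sign with library totals as the scaling (0.062). The light chain median minus the heavy chain median was 0.078, between 0.051 and 0.10 under the 6 alternatives that can change it. Of all genes tested 12.3% were 2-fold or more higher and 5.03% 2-fold or more lower, and the only V segment past 2-fold was Iglv3, with a ratio of -1.03. This comparison shares its libraries with both others. In the order etoposide against LPS, KU55933 plus etoposide against etoposide and KU55933 plus etoposide against LPS, the log2 ratios of the kappa sum were 0.27, -0.27 and 0.0029, and those of the heavy sum -0.044, -0.027 and -0.070. These ratios use median-of-ratios factors and move with the scaling. As shares of the library total, kappa segments held 0.259% in LPS and 0.279% in LEKU, and heavy segments 0.194% in LPS and in LE.

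The lambda locus has few V segments, and its 3 members had unlike ratios. Iglv1 had fitted counts of 4656 in LPS, 5217 in LE and 4278 in LEKU, and log2 ratios of 0.16 after etoposide and -0.29 with KU55933. Iglv2, its near copy, had 1383, 1893 and 1551, with ratios of 0.45 and -0.29. Iglv3 had 1432, 1112 and 700.2, with ratios of -0.36 (counting interval -0.42 to -0.31) and -0.67 (-0.73 to -0.60). Iglv3 was thus lower in LE than in LPS where Iglv1 and Iglv2 were higher, and it was lowest in LEKU. Iglv3 shares no window of 100 bases with another V segment, and Iglv1 overlaps the annotated locus 2010309G21Rik. The sum of the 3 was 7471, 8222 and 6529, and its ratio of 0.14 after etoposide lay between -0.00041 and 0.22 in the other scalings.

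The constant genes, which are spliced to the joined V exon, allow each chain to be compared at its other end. Igkc, the only kappa constant gene, had fitted counts of 74627 in LPS, 88483 in LE and 74673 in LEKU, with log2 ratios of 0.25 after etoposide and -0.24 with KU55933, beside 0.27 and -0.27 for the kappa V sum. The V sum was 84.7%, 86.4% and 84.9% of the Igkc count, so that both ends of the chain gave nearly the same ratios. Ighm, the IgM heavy chain, had 332367, 297841 and 301417, with ratios of -0.16 and 0.017, beside -0.044 and -0.027 for the heavy V sum, and that sum was 14.3%, 15.5% and 15.0% of the Ighm count. These percentages are not corrected for exon length, which is greater in Ighm than in Igkc, so that they cannot be compared between chains. The other heavy constant genes are spliced to the same V segments. Ighd (IgD) had 5299, 2407 and 4060, Ighg2b 3229, 909.9 and 1403 and Ighg3 1960, 832.2 and 1240, and these 3 of the 7 tested were 2-fold or more lower in LE than in LPS, against 4.87% of all genes. Ighg1 was 2-fold higher, at 68.3, 154.4 and 79.1, against 15.3% of all genes. With quantile normalization none was 2-fold higher (log2 ratio of Ighg1 0.79) and 4 were lower, Ighg2c with them. Iglc2, a lambda constant gene, had 10028, 6504 and 5583, with ratios of -0.62 and -0.22, beside 0.14 and -0.33 for the lambda V sum, which differ after etoposide. Iglc1 and Iglc3 have no row in the table used here, so that the sum over 3 V segments and this 1 constant gene do not cover the same transcripts. Of the single lambda segments, only Iglv3 was on the same side as Iglc2 after etoposide, whereas with KU55933 all 3 were.

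Position in the locus gave smaller differences than the chain. The 94 heavy segments lie between 156 and 2577 kb from Ighm on chromosome 12, all on its strand, and the 89 kappa segments between 22.3 and 3170 kb from Igkc on chromosome 6, with 33 on the strand of Igkc and 56 on the other. Split by distance into 3 groups of near equal size, heavy segments had median log2 ratios after etoposide of -0.062 (nearest), -0.14 and -0.077 (farthest), and kappa segments had 0.17, 0.21 and 0.23. Kappa segments on the strand of Igkc, which join by deletion, had a median of 0.18, and those on the opposite strand, which join by inversion, had 0.23. The rank correlation of distance with this ratio was -0.084 in heavy and 0.23 in kappa segments. Medians were alike with and without shared sequence. The median was -0.091 in the 64 heavy segments that share no window of 100 bases and -0.086 in the 30 that do, and 0.20 and 0.19 in the 47 and 42 kappa segments.

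**Figure D5:**
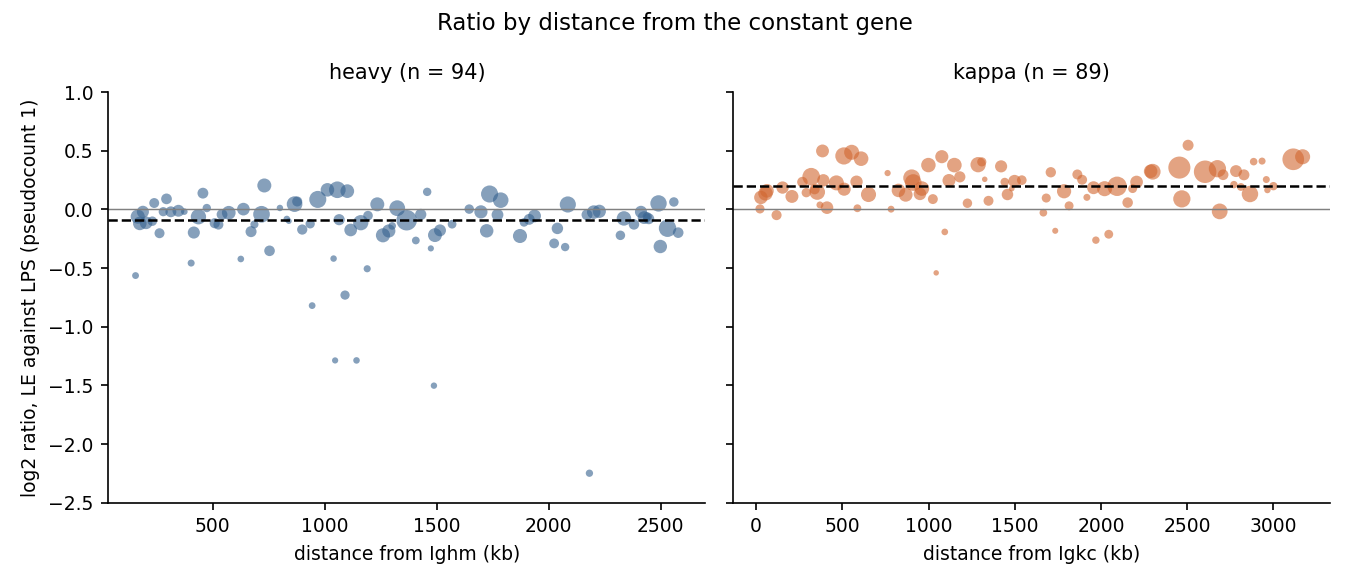
Each circle is 1 V segment gene, with its distance in kb from the constant gene Ighm or Igkc on the horizontal axis and the log2 ratio of LE against LPS (pseudocount 1) on the vertical axis, the area grows with the square root of the LPS count and the dashed line is the median of the chain. Kappa medians of 0.17, 0.21 and 0.23 in the nearest, middle and farthest groups exceed the heavy values of -0.062, -0.14 and -0.077.

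The same segments led each repertoire in all conditions. The 10 highest kappa segments in LPS were also the 10 highest in LE and in LEKU, and of the 10 highest heavy segments 10 remained in LE and 9 in LEKU. The 10 highest segments of each condition held 46.6% of the kappa sum in LE and 46.7% in LEKU, and 38.8% and 39.2% of the heavy sum. Lambda segments made up 10.6% of the light chain V counts in LPS, 9.71% in LE and 9.34% in LEKU.

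V segment promoters carry an octamer bound by the factors Pou2f1 and Pou2f2 with the B cell coactivator Pou2af1, and factors such as Spi1, Spib, Tcf3, Pax5 and Irf4 bind immunoglobulin enhancers. Of the 14 such factor genes listed, all tested, 7 were 2-fold or more lower in LE than in LPS (8 with TMM factors), against 4.87% of all genes, and none was 2-fold higher, against 15.3%, with a median log2 ratio of -0.999. In LEKU against LE none passed 2-fold in either direction. Pou2af1 had fitted counts of 24936 in LPS, 9412 in LE and 9061 in LEKU, Pax5 had 5341, 1146 and 1180, and Ikzf1 had 18485, 3839 and 3900. Ebf1, Mef2c, Ets1 and Tcf3 were the other 4 past 2-fold. Pou2f2 had 11381, 6221 and 4911, while Pou2f1 (1956, 2766 and 1425) and Spib (12280, 17462 and 18568) were higher in LE than in LPS in every scaling. Yy1, Spi1 and Irf4 also had log2 ratios above 0 in LE against LPS, at 0.31, 0.25 and 0.18, and Tcf12 had -0.64. The lower counts of the 7 factors past 2-fold stand beside kappa V segments that were higher. The part of any of these factors in the V segment values was not tested.

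Of the enzymes that join V segments, Rag1, Rag2 and Dntt were under 10 fitted counts in every condition. Msh6, a mismatch repair gene, had 4033, 9733 and 6251. Among 8 genes of the switch to secreted antibody none passed 2-fold in LE against LPS (1 was lower with TMM factors), and their median log2 ratio was -0.40. Of all genes 15.3% were 2-fold higher and 4.87% lower. Of 7 receptor partner and surrogate light chain genes 5 were tested. Vpreb1, with 3.05, 10.5 and 6.90, was 2-fold higher in LE, against 15.3% of all genes. It passed the filter only through LE, and with quantile normalization it was not 2-fold higher. Vpreb3, with 1137, 574 and 404, had a ratio of -0.98 and was 2-fold lower with TMM factors and quantile normalization.

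Markers of the cells in the cultures differed between conditions. All 9 B cell markers were expressed, and 4 (Cd22, Pax5, Fcer2a and Cr2) were 2-fold or more lower in LE than in LPS, against 4.87% of all genes. The 9 had a summed level of 218949 in LPS, 148163 in LE and 153586 in LEKU. Of 9 plasma cell markers, 8 were tested. Sdc1 (133, 1996 and 643.9) and Slamf7 (1942, 5289 and 2506) were 2-fold or more higher in LE, against 15.3% of all genes. None was 2-fold lower, against 4.87%, and the summed levels of the list were 28974, 34367 and 20913. The list went both ways, with a median log2 ratio of 0.027 in LE against LPS and values of -0.38 for Prdm1, -0.43 for Xbp1, -0.33 for Fkbp11 and -0.13 for Ell2. In bulk RNA fewer cells of a type and less RNA per cell cannot be told apart. Of 10 T cell markers 8, including Cd3d, Cd3e and Cd3g, were under 10 in every condition (summed 1092, 491.8 and 609.2, nearly all of it Cd2), of 6 neutrophil markers 5 were (4.60, 20.5 and 9.51), and of 5 natural killer cell markers 4 (23.5, 30.5 and 26.2). Of 8 macrophage and monocyte markers 1 was under 10 throughout (summed 428, 494 and 447). Among the 7 tested Cd14 (log2 ratio 2.10), Csf1r (1.202) and Cd68 (1.09) were 2-fold or more higher in LE than in LPS, against 15.3% of all genes. With TMM factors 2 of them were, and with quantile normalization 1. Cd14 had fitted counts of 4.99 in LPS, 24.7 in LE and 41.1 in LEKU. Csf1r had 4.03, 10.6 and 9.83 and passed the filter only through LE, where it is highest. Itgam (-0.68) and Mrc1 (-0.79) had values below 0. Of 6 red cell markers 3 were under 10 throughout (210, 190 and 118). The part of these cells in the V segment values was not tested.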

How the data were processed

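PolyA RNA of splenic B cells was sequenced by the authors in 12 libraries, 4 per condition, from single-end reads of 100 bases. Per the labels and the study's methods, reads were trimmed with Trim Galore and cutadapt 1.2.1, mapped to GRCm38 with TopHat2 2.0.12, counted on Ensembl genes with HTSeq and fitted with DESeq2 1.6.3. The strand setting of the counting is not given in the sources used here. The authors deposited normalized counts, a signal per gene and library that equals the fitted mean of a condition times a library factor. The authors' 3 tables of comparisons (mean, log2 fold change, its error, score and p-values) were not used.

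Each column was divided by a median-of-ratios factor over 10892 genes with a mean of at least 100 (factors 0.848 to 1.29), averaged per condition and compared as log2 ratios with a pseudocount of 1. The planned test with limma needs values per replicate and was left out. Levels per kilobase and positions used the exons of GENCODE M21, which holds all 186 members. Intervals use the counts summed over the columns of a condition, at the 95% level, and cover counting error only. The code for scaling and calling was run on simulated columns without noise, with equal numbers of genes raised and lowered. This checks the code and not how the scalings behave on these data. Members, gene lists and the rule for named genes (the 10 highest heavy and kappa segments, all lambda segments, the 5 and 3 largest ratios each way above a mean of 100, the 3 rows each side of the minimum and the listed constant and factor genes) were chosen with earlier results of these data known. Members past or under a threshold, families and other list genes were named after their values were seen. The result of 1 listed gene is not reported here. Alternatives were other scalings (library totals with and without immunoglobulin genes, TMM, quantile), pseudocounts of 0.5 and 5, minima of 5 and 100, functional segments only, 1.5-fold, no filter, other totals and leaving out each library. Python 3.11.15, numpy 2.4.6, scipy 1.17.1, pandas 2.3.3, matplotlib 3.10.9 and biopython 1.88 were used.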

Additional observations from a re-analysis of the deposited data

How the results depend on the processing

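The medians of the chains moved with the scaling. A size factor nearly cancels in the difference between chains, and so does leaving out a library, so that only quantile normalization, the pseudocounts, the minima and the choice of functional segments bear on it. It kept its sign under these 6. With library totals, and with totals that leave out immunoglobulin genes, the heavy median of KU55933 plus etoposide against etoposide was 0.030 and 0.029, that against LPS was -0.020 in both, the light median against LPS was 0.059 and 0.058, the median of all genes against etoposide was 0.0056 and 0.0052, and 0 light segments were 2-fold lower against LPS. With TMM factors the etoposide medians were -0.22 (heavy) and 0.056 (light), those of KU55933 plus etoposide against LPS -0.26 and -0.18, and 2 heavy segments were 2-fold lower there. With quantile normalization the etoposide medians were -0.27 and 0.076, with 8 heavy and 1 light segment 2-fold lower, the heavy median of KU55933 plus etoposide against etoposide was 0.0020 with 2 heavy segments 2-fold higher, and the medians against LPS were -0.28 and -0.19 with 2 heavy segments lower. The median of all genes was -0.073 (TMM) and -0.098 (quantile) after etoposide, -0.043 and -0.024 for KU55933 plus etoposide against LPS, and 0.017 (quantile) against etoposide. The shares of all genes past 2-fold given above are those with median-of-ratios factors. They are not the ones to set beside counts from other scalings, which are therefore not read as results about V segments.

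In etoposide against LPS and in KU55933 plus etoposide against etoposide, counts past 2-fold rest on segments with few reads. Iglv3, past 2-fold in KU55933 plus etoposide against LPS, is abundant, with a mean of 1077. With a minimum mean of 5, 7 heavy segments were 2-fold lower after etoposide and 2 were higher with KU55933. With a minimum of 100 these counts were 0 and 0, and 0 light segments were higher with KU55933. Among functional segments 2 heavy segments were lower after etoposide. At 1.5-fold 3 heavy segments were higher and 2 light segments lower in KU55933 plus etoposide against etoposide, and 5 heavy segments were lower and 1 light segment higher in KU55933 plus etoposide against LPS. The shares of all genes given above are for 2-fold and do not apply to these counts. Pseudocounts of 0.5 and 5 left each chain median within 0.1 on the log2 scale, and the other library totals left each share within its counting interval. Ratios of single segments were not compared between pseudocounts.

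No paired analysis was possible because the deposited columns of a condition are proportional and hold no differences between replicates. For the same reason leaving out a library could hardly change a value: the light minus heavy difference stayed at 0.28, -0.21 and 0.078 in the 3 comparisons. This says nothing of how cultures vary.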

Other observations

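The J segments, which lie between the V segments and the constant genes, were looked at after the V segment values were seen. The 4 heavy J segments (Ighj1 to Ighj4) had log2 ratios from -1.59 to -1.37 after etoposide, with Ighj4 at 452.5 fitted counts in LPS, 174.8 in LE and 219.2 in LEKU and Ighj2 at 167.5, 54.9 and 69.1. The 5 kappa J segments (Igkj1 to Igkj5) had ratios from -0.47 to -0.39, with Igkj5 at 407.0, 311.2 and 289.2 and Igkj2 at 279.2, 207.5 and 150.6. In both loci the J segments thus had lower ratios after etoposide than the chain's V sum (-0.044 and 0.27) and its constant gene (-0.16 for Ighm and 0.25 for Igkc). None of the 16 D segment rows passed the filter, and the highest fitted count was 3.14. J segments are shorter than a read, and how reads across a junction were counted is not given in the sources used here.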
